A study of Mus musculus with 12 samples.

Results

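RNA of the mitochondrial preparation was compared with RNA of nuclei from C17.2 cells 1 h after the start of neural induction. C17.2 is an established neural stem cell line of mouse (CD1 x C57BL/6), grown in DMEM/F12 with 10% fetal bovine serum and an antibiotic. For induction the serum medium gave way to Knockout DMEM, N2 supplement and GlutaMAX. The comparison rests on 4 of the 12 libraries of the series, chosen by their labels: 2 of isolated mitochondria and 2 of nuclei at 1 h. The other libraries are those of the same fractions at 0 h and 2 h, again 2 per group. Every group, that of 0 h included, carries the neural induction label, and no group spent the 1 h in serum medium, so time in the new medium and loss of serum cannot be told apart. The submitters call the libraries of a group biological replicates without naming separate cultures, so p-values measure the spread between these libraries.

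The gene table was read for all genes that rose above the floor of a library (a gene without a read) in at least 2 of the 12 libraries. This held for 21078 of 35321 genes, and 14243 genes were left out. At 1 h the mitochondrial libraries had 5035624 and 6381785 reads in genes, 15.749% and 16.097% of their totals. The nuclear libraries had 4564148 and 4573360, 13.999% and 13.898% of their totals. Levels are given in RPM, reads scaled to the library total. Differences are log2 values, mitochondrial preparation minus nuclei, after each library was set to its own median over the tested genes, with the standard error of the limma model after a ± sign (n = 2 libraries per fraction). A gene was called at a Benjamini-Hochberg adjusted p under 0.05 over all tested genes.

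A nucleus retains RNAs that are made or used there: small nuclear RNAs of the spliceosome, small nucleolar RNAs, the RNase P and RNase MRP RNAs, and long non-coding RNAs such as Malat1 and Neat1. Nuclear-encoded mRNAs for mitochondrial proteins leave the nucleus to be translated on cytosolic ribosomes, some of them at the mitochondrial surface, whereas mitochondrial DNA encodes its own rRNAs, tRNAs and a small set of mRNAs. Crude mitochondrial preparations also hold endoplasmic reticulum, which is tethered to mitochondria and carries the ribosomes that translate secreted and membrane proteins. A level in the mitochondrial preparation therefore does not place an RNA inside the organelle.

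Sequences are shown first for the RNAs that set the fractions furthest apart. U1 and U3 were among the RNAs with the largest excess in nuclei, and Rpph1, the RNA of RNase P, has the copies Rprl2 and Rprl3, which stood among the genes most in excess in nuclei. All come from GENCODE M21 on GRCm38, 5′ to 3′ in the sense of the transcript. In U1 (Rnu1b6, chr3:96460024-96460189, minus strand, whole) the capitals mark bases 3 to 11, which pair with the 5′ splice site. In U3 (Rnu3b1, chr11:87443237-87443452, plus strand, whole) they mark the box C letters TGATGA.
Rnu1b6: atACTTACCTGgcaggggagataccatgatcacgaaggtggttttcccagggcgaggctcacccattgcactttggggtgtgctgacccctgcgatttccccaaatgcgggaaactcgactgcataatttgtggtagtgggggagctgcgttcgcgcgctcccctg
Rnu3b1: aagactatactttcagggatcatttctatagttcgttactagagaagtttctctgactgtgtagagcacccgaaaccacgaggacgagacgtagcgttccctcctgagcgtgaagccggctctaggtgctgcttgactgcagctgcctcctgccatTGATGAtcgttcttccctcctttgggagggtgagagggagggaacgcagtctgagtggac

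The first 120 bases of Rpph1 (chr14:50807648-50807767, minus strand), Rprl2 (chr3:22251374-22251493, plus strand) and Rprl3 (chr8:3803239-3803358, minus strand) are printed together because the copies differ so little that reads can be shared between them. Capitals in the copies mark bases that differ from Rpph1 without gaps. Rprl2 was the same at 112 of 120 bases (93.3%) and Rprl3 at 113 (94.2%).
Rpph1: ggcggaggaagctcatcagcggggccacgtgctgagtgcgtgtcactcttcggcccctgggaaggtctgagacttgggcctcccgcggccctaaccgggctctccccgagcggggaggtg
Rprl2: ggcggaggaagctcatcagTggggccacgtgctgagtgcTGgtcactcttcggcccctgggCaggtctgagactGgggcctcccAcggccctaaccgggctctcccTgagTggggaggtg
Rprl3: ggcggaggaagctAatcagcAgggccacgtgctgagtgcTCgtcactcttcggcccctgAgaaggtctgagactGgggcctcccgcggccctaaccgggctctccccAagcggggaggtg

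The mRNAs most in excess in the mitochondrial preparation included those of Net1, Dynll2, Cyb5r3, Kif1c and Trak2, which are known in other mouse cells as mRNAs that travel into cell protrusions. Their 3′ untranslated regions are known for GA-rich stretches. The 30 bases with the most matches to the heptamer A or G, then GAAG, then A or G, then A or G (8 spellings, transcript strand only, overlaps allowed) are shown for each, with matches in capitals. They lie at chr13:3883036-3883065 (minus strand, Net1), chr11:87980484-87980513 (minus, Dynll2), chr15:83157607-83157636 (minus, Cyb5r3), chr11:70729028-70729057 (plus, Kif1c) and chr1:58903398-58903427 (minus, Trak2), all in the 3′ UTR. The first in the set held 5 overlapping matches, the last 1, and the others 2 each.
Net1: tagGGAAGGGAAGGGAAGAGAAGAGAAGAG
Dynll2: ggtgggtttggggtAGAAGGGtgGGAAGGG
Cyb5r3: cctggcaAGAAGGAgtttcagtgGGAAGGA
Kif1c: gagtgtgctggaggctgagGGAAGGAAGAG
Trak2: acttgagagaaaagggatgttgcAGAAGGA

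One feature of the libraries cuts across the fractions. Rps27, Rpl17, Rpl23a and Gapdh had few reads in 4 of the 12 libraries, among them replicate 1 of both fractions at 1 h: Gapdh had 112 reads in the mitochondrial and 149 in the nuclear replicate 1, and 4924 and 3117 in the replicates 2. With a model term for this split 1973 genes were higher and 381 lower. Without those libraries each fraction keeps 1 library at 1 h, assumed to vary like those of 2 h, and 20 genes were higher and 6 lower. In bulk RNA fewer cells of a type and less RNA per cell cannot be told apart.

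Over all genes the comparison asked which nuclear-encoded RNAs the mitochondrial preparation held in excess over nuclei. In limma, 1791 genes (8.5% of those tested) were higher in the mitochondrial preparation and 392 (1.86%) were lower, which is higher in nuclei. Leaving out either mitochondrial library or nuclear replicate 2 gave 1242 to 1337 calls in all. The difference moved with the level of the gene. Its median was -0.31 in decile 4 of genes by mean level and from there rose to 0.04 in decile 6 and 0.22 in decile 10. In deciles 1 and 2 the median was -0.15. That is the constant of a gene without a read at 1 h, set by library floors and centring, and not a measured difference. Among the 10539 genes above the median level the median difference was 0.14, with 1739 higher (16.5%) and 265 lower (2.51%). The split between directions therefore depended on the scaling. After quantile normalization, which removes a difference that moves with level, 356 genes were higher (1.69%) and 471 lower (2.23%), and with each library set to the median of the genes above the median level 693 were higher and 607 lower. Of the 1791 genes higher in the main test 343 stayed higher after quantile normalization, and of the 392 lower genes 297 stayed lower. The quantile-normalized count is therefore given beside that of each gene list below.

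**Figure D1:**
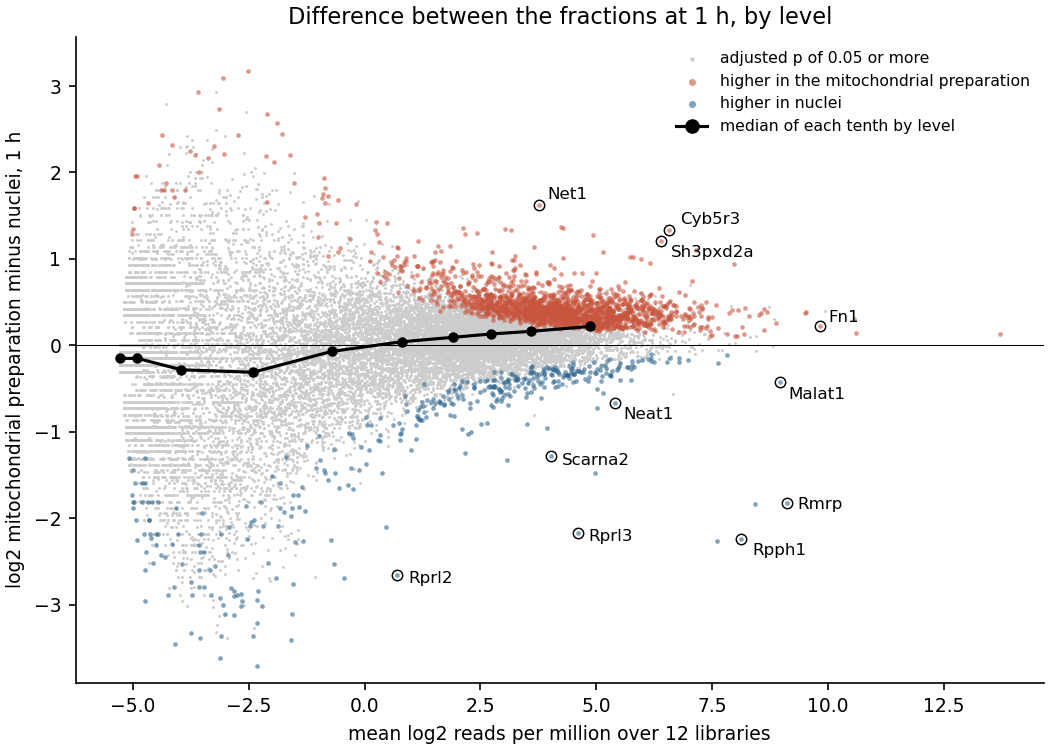
Each point is a gene; the x axis is its mean log2 RPM over 12 libraries and the y axis its log2 difference, mitochondrial preparation minus nuclei at 1 h, with called genes coloured and the black line joining the medians of deciles by level. The median of decile 1, -0.15, is the constant of a gene without a read at 1 h. From -0.31 in decile 4 the medians climb to 0.22 in decile 10. The circled Rpph1, Rmrp and Rprl3 lie at -2.24, -1.83 and -2.17.

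The RNase P and RNase MRP RNAs, nuclear ribozymes that cut precursor tRNA and precursor rRNA, had, with the genes that overlap them, the largest excess in nuclei among the leading genes of high level. Rpph1 (chromosome 14, 50807449 to 50807767) stood at 119.6 and 112.5 RPM in the mitochondrial libraries and at 558.1 and 514.3 RPM in the nuclear ones. Both nuclear values lay far above both mitochondrial values, and the log2 difference was -2.24 ± 0.04 (4.72-fold higher in nuclei; limma, adjusted p = 3.6e-09). Rmrp, the RNA of RNase MRP (chromosome 4, 43492783 to 43493063), stood at 264.6 and 278.6 RPM against 935.0 and 949.7 RPM, a log2 difference of -1.83 ± 0.08 (adjusted p = 2.1e-05). The copies Rprl3, with 11.0 and 9.84 against 47.5 and 43.9 RPM, and Rprl2, with 0.407 and 0.782 against 3.86 and 3.13 RPM, differed by -2.17 ± 0.05 and -2.66 ± 0.37 (adjusted p = 1.7e-08 and 0.0019); how reads were shared among the near-identical genes is not given in the sources used here. The same excess was read for Ccnb1ip1, which overlaps Rpph1, at -2.26 ± 0.04, and for Ccdc107, which overlaps Rmrp on the other strand, at -1.84 ± 0.07. Ccnb1ip1 lies on the same strand as Rpph1, so strand could not separate their reads. Whether the libraries kept strand is not stated, so Ccdc107 cannot be told apart from Rmrp either.

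Other small structured RNAs followed the same direction. Terc, the template RNA of telomerase, had 0.438 and 0.454 RPM against 1.23 and 1.46 RPM, a log2 difference of -1.62 ± 0.30 (adjusted p = 0.008). In the list of small nuclear, nucleolar and Cajal body RNA genes the 7 tested members were all Cajal body RNAs. Of these, 4 were lower in the mitochondrial preparation (57.1%, beside 1.86% of all tested genes) and none was higher, with a median of -1.29. After quantile normalization 4 were lower, beside 2.23% of all. Scarna2, a guide RNA of Cajal bodies, stood at 8.94 and 9.03 RPM against 21 and 21.9 RPM (-1.29 ± 0.08, adjusted p = 1.8e-05), and Scarna13 at 4.82 and 4.09 against 10.9 and 10.9 RPM (-1.33 ± 0.13). Scarna13 lies within Snhg10, and its reads cannot be told apart from that gene's. Scarna6 and Scarna3a were called on few reads, with 13 and 4 against 39 and 36 for the first. Bc1, a brain cytoplasmic RNA of the dendrite in neurons, did not pass: 22.5 and 19.8 RPM against 24.3 and 20.1 RPM, groups that overlapped (-0.10 ± 0.08, adjusted p = 0.52).

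Nuclear long non-coding RNAs were moderately higher in nuclei. Of 16 tested, 5 were lower in the mitochondrial preparation (31.2%), none was higher and 11 did not pass, with a median of -0.43. Over all tested genes 1.86% were lower, and above the median level 2.51%. The count of the list was again 5 after quantile normalization, beside 2.23% of all genes. Neat1, the scaffold of paraspeckles (chromosome 19, 5824708 to 5845478), had 27.4 and 26.1 RPM against 42.6 and 40.4 RPM (-0.67 ± 0.05, adjusted p = 5.3e-05). Malat1, of nuclear speckles (chromosome 19, 5795690 to 5802672), had 371.8 and 348.2 RPM against 491.5 and 456.2 RPM (-0.43 ± 0.04, adjusted p = 0.00014). Relative to the median gene the mitochondrial libraries held them at 0.631 and 0.744 times their level in nuclei, and neither RNA overlapped between the fractions. Kcnq1ot1, the antisense RNA of an imprinted cluster, had 35.3 and 32.4 RPM against 45.4 and 41.9 RPM (-0.40 ± 0.05), and Mir100hg differed by -0.69 ± 0.09. Airn, at -0.62 ± 0.14, was the fifth. Xist, which coats the inactive X chromosome, had at most 0.184 RPM in any of the 4 libraries and did not pass (adjusted p = 0.42).

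The host genes of small nucleolar RNAs, whose introns release those RNAs, showed 7 of 16 lower (43.8%), none higher and a median of -0.42. Over all tested genes 1.86% were lower. After quantile normalization 8 host genes were lower, beside 2.23% of all genes. Snhg3 stood at 10.6 and 10.1 RPM against 18.9 and 20.8 RPM (-0.96 ± 0.08, adjusted p = 9.2e-05), Snhg4 at -0.91 ± 0.06, Snhg20 at -1.03 ± 0.16 and Snhg1 at -0.61 ± 0.10. Each of these genes overlaps annotated small RNA genes, whose reads cannot be told apart from its own. Dancr, at 1.22 and 1.21 RPM against 2.42 and 2.40 RPM, overlaps Snora26, and Taf1d, a subunit of an RNA polymerase I factor whose gene also carries small nucleolar RNAs, differed by -0.73 ± 0.07. The remaining leading genes of nuclei were of low level: Tmem44, Casz1, Pkdcc, Amn1 and Lncppara, with log2 differences from -1.21 to -1.01 and at most 7.45 RPM in a library.

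**Figure D2:**
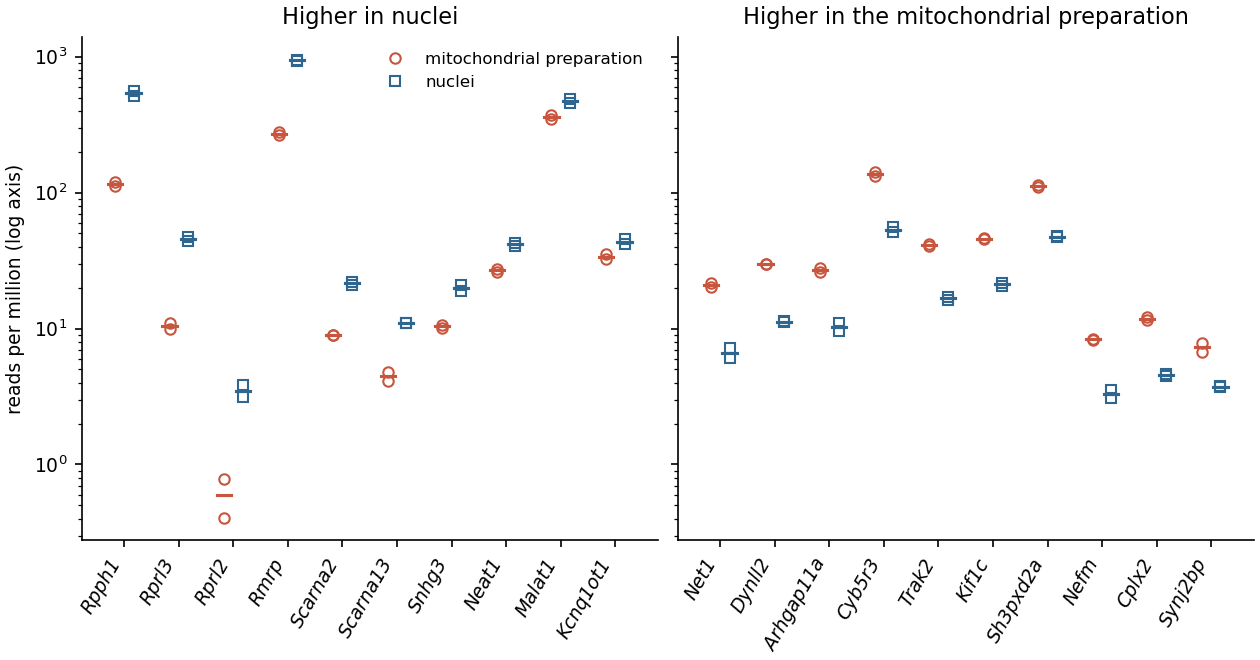
RPM of single libraries at 1 h on a log axis, circles for the mitochondrial preparation and squares for nuclei, with a bar at the mean of each pair. No pair of groups overlaps for any gene drawn; Rpph1 lies at 112.5 and 119.6 against 514.3 and 558.1 RPM, and Cyb5r3 at 131.5 and 142.2 against 51.1 and 55.4 RPM.

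Small RNAs that the gene table lists at the floor were read from the transcript table in FPKM, fragments scaled to transcript length and library total. It was used for both mitochondrial libraries of 1 h and for nuclear replicate 2; for nuclei the first replicate has no FPKM used here, so a nuclear value is that of 1 library, assumed to vary like those of the other groups. Differences are on the scale of log2(FPKM + 1), without centring, on which the median over all 6856 tested transcripts was 0.20. In limma 25 transcripts were higher (0.365%) and 69 lower (1.01%). Of 38 small nuclear RNA transcripts 25 were lower in the mitochondrial preparation and none was higher, with a median of -2.91. All 4 ribozyme transcripts and 10 of 13 in the miscellaneous class were lower too, and 16 of 64 small nucleolar RNA transcripts, with 1 higher. The RNAs of the next paragraph, apart from Rn7sk, Rpph1 and Rmrp, were picked after their values were seen.

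U3 is the nucleolar RNA that guides early cuts of ribosomal RNA. Its copy Rnu3b4 stood at 16.3 and 14.9 FPKM against 258.6 FPKM (-3.97 ± 0.12; limma, adjusted p = 4.4e-05). The 4 copies Rnu3b1 to Rnu3b4 are identical over 216 bases, so the share of each is uncertain. U1, which recognises the 5′ splice site, had 3.04 and 2.34 FPKM against 47.7 FPKM in its copy Rnu1b6 (-3.73 ± 0.15, adjusted p = 5.9e-05), and Rnu2-10, of the U2 family, had 3.13 and 2.55 against 28.4 FPKM (-2.94 ± 0.16). Other copies differed by less: the U3 copy Rnu3a was 8.03 times higher in the nuclear library, and the U1 copy Rnu1a1, at 1.95 and 4.04 against 4.37 FPKM, did not pass (adjusted p = 0.68). Rn7sk, which holds a transcription elongation factor inactive in the nucleus, had 1109.3 and 1099.6 against 3835.6 FPKM (-1.80 ± 0.06). Rn7s1, the RNA of the signal recognition particle that works in the cytoplasm, had 2712.7 and 2655.6 against 6644.5 FPKM (-1.31 ± 0.06, adjusted p = 7.2e-05). Rny3 and Rny1, small RNAs of Ro particles, had 27.0 and 34.4 against 363.5 FPKM and 31.1 and 29.7 against 141.4 FPKM. Rpph1 and Rmrp differed on this scale by -2.06 ± 0.09 and -1.84 ± 0.07. Snora73b, the single small nucleolar RNA called higher, was listed at 0 FPKM in the nuclear library of 1 h and at 19.4 to 58.0 FPKM in the nuclear libraries of 0 and 2 h, while its neighbour and relative Snora73a, at 6.27 and 7.03 against 45.2 FPKM, was lower.

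RNAs encoded by mitochondrial DNA differed little between the fractions. All 13 mRNAs had a positive difference, from 0.06 (mt-Nd3) to 0.73 (mt-Nd4), and none of the 33 mitochondrially encoded transcripts passed the test. Their median, 0.28, lay close to the 0.20 of all transcripts. The subunit mRNA mt-Co1, of cytochrome c oxidase, had 745.6 and 704.3 FPKM against 596.1 FPKM (0.28 ± 0.11, adjusted p = 0.37). mt-Nd4, of complex I, had 15.2 and 15.1 against 8.76 FPKM (adjusted p = 0.098). The large rRNA mt-Rnr2 had 10099.8 and 9364.8 against 8156.3 FPKM (adjusted p = 0.42). Mitochondrially encoded transcripts took 2.46% and 2.28% of the summed FPKM in the mitochondrial libraries and 1.99% in the nuclear one, so both preparations carried them.

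**Figure D3:**
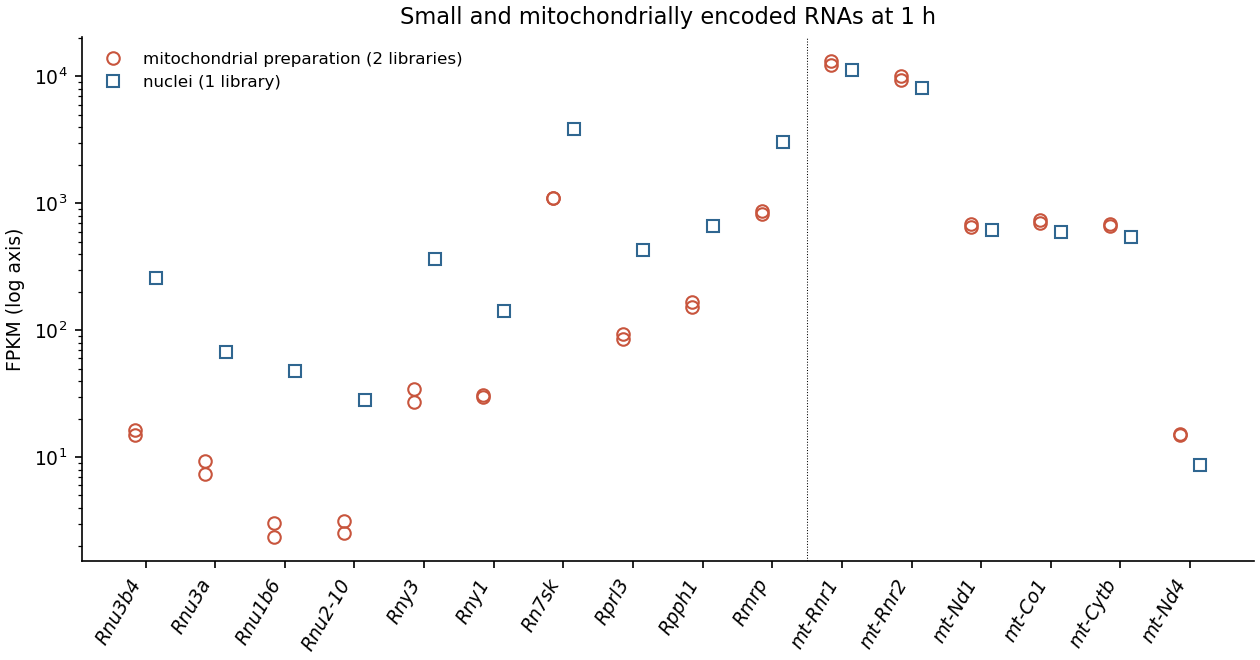
FPKM on a log axis at 1 h, circles for both mitochondrial libraries and squares for the single nuclear library, with nuclear-encoded small RNAs left of the dotted line and mitochondrially encoded RNAs right of it. Rnu3b4 lies at 14.9 and 16.3 against 258.6 FPKM, whereas mt-Co1 lies at 704.3 and 745.6 against 596.1 FPKM.

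The mRNAs with the largest excess in the mitochondrial preparation were led by Net1, a guanine nucleotide exchange factor for RhoA (chromosome 13, 3882018 to 3918220). It had 20.1 and 21.6 RPM against 6.07 and 7.2 RPM, a log2 difference of 1.62 ± 0.12 (3.08-fold; adjusted p = 7.2e-05). Dynll2, a dynein light chain, had 29.6 and 29.7 against 11.3 and 11.1 RPM (1.37 ± 0.05). Cyb5r3, a reductase of the mitochondrial outer membrane and the endoplasmic reticulum, had 142.2 and 131.5 against 55.4 and 51.1 RPM (1.33 ± 0.04, adjusted p = 1.0e-07). Trak2, which joins mitochondria to kinesin and dynein motors, had 42.2 and 40.2 against 17.1 and 16.2 RPM (1.27 ± 0.06), and Kif1c, a kinesin, 45.3 and 46.5 against 20.7 and 21.7 RPM (1.08 ± 0.07).

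These genes belong to a list of 10 mRNAs known from protrusions of other cells, of which 9 were higher (90.0%) and none lower, with a median of 1.05. Over all tested genes 8.5% were higher, and above the median level 16.5%, shares not matched to the level of the members. After quantile normalization 5 of the list were higher, beside 1.69% of all genes, and the list median was 0.93. The list was drawn up with results of these data known, so its count is a description. Rab13, a small GTPase, was at 1.02 ± 0.27, Kif5b, a kinesin, at 0.46 ± 0.04, Ddr2, a collagen receptor, at 0.40 ± 0.03, and Palld, an actin-binding protein, at 0.38 ± 0.10. Kank2, at 17 and 18.4 against 17.8 and 15.8 RPM, did not pass. GA-rich heptamers were not particular to these mRNAs: 70.9% of 9902 coding genes above the median level had at least 1 in the longest 3′ UTR of the annotation, and the 10 had from 3 to 8. Their density was 3.90 per kilobase in Net1, 6.23 in Rab13 and 0.972 in Kif1c, with a median of 2.19 over the 10 beside 0.96 over all. Across the 9902 genes the number of heptamers did not rank with the difference (Spearman's rho -0.01, across genes, which are not independent). Genes with 10 or more heptamers had a median difference of 0.15, as had genes with none. The share called higher was 24.7% of the former and 15.2% of the latter, but their median 3′ UTR lengths were 5184 and 581 bases. Within the fifth of longest 3′ UTRs the share was 22.6% with 1 to 2 heptamers and 25.7% with 10 or more.

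Sh3pxd2a, a scaffold of podosomes, was the other leading gene of high level, with 113.9 and 110.5 against 47.8 and 47.0 RPM (1.21 ± 0.03, adjusted p = 1.6e-08). Arhgap11a, a RhoA-inactivating protein, had 28.0 and 25.9 against 10.9 and 9.60 RPM (1.36 ± 0.06). Several others are known from neurons: Nefm, a neurofilament subunit, had 8.44 and 8.22 against 3.56 and 3.07 RPM (1.30 ± 0.11), Cplx2, of synaptic vesicle release, 12.1 and 11.5 against 4.48 and 4.65 RPM (1.34 ± 0.12), and Crmp1, Pou3f2 and Map7d2 differed by 1.33 ± 0.29, 1.42 ± 0.33 and 1.29 ± 0.30 at no more than 2.66 RPM. Samd5, Zbtb12, Lhfpl4 and Arnt2, at 1.20 to 1.42, completed the 15 leading genes. Of 8 neuronal markers 2 were called higher in the mitochondrial preparation (Tubb3 and Map2), and their summed level was 21.1 and 19.7 RPM against 13.0 and 9.82 RPM, while Dcx, Syt1 and Stmn2 had no read at 1 h. Of 9 tested neural progenitor markers 3 were higher and 1 lower. They summed to 631.2 and 613.2 against 524.0 and 503.1 RPM, most of it Vim; Nes went the other way, with 110.6 and 110.9 against 123.9 and 119.7 RPM, and Prom1 had no read. The part of the marker genes in these results was not tested.

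Of nuclear-encoded mRNAs for mitochondrial proteins some lists had more higher members than the 16.5% of all genes above the median level. Others had about as many or fewer. List members were tested at any level, and the 16.5% is not matched to it. The share called higher rose with level, from 2.42% in decile 6 to 43.3% in decile 10. Of 19 genes of pyruvate dehydrogenase and the TCA cycle 12 were higher (63.2%) and none lower, with a median of 0.36 beside 0.14 for all genes above the median level; 3 were higher after quantile normalization. Pdha1, of the first subunit of pyruvate dehydrogenase, had 34.5 and 33.4 against 21.6 and 19.8 RPM (0.69 ± 0.04, adjusted p = 2.5e-05). Dld, the dihydrolipoamide dehydrogenase shared by several complexes, was at 0.70 ± 0.10, Dlst at 0.40 ± 0.06 and Cs, citrate synthase, at 0.28 ± 0.03. Respiratory chain subunits showed 15 of 85 higher (17.6%) and none lower, median 0.26, and 1 after quantile normalization. Ndufs1, of complex I, was at 0.51 ± 0.08, and Atp5a1, of ATP synthase, had 104.9 and 99.5 against 78.9 and 73.9 RPM (0.39 ± 0.02, adjusted p = 2.4e-05).

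Mitochondrial ribosomal proteins had 12 of 78 higher (15.4%) and none lower, median 0.26, and none after quantile normalization. Import and chaperone genes had 7 of 42 higher (16.7%), median 0.22, with Hspa9, the mitochondrial Hsp70, at 0.37 ± 0.06 and Tomm70a, an import receptor, at 0.35 ± 0.05; none was called after quantile normalization. Factors of mitochondrial RNA had 4 of 32 higher (12.5%) and 1 after quantile normalization, median 0.14, with Slirp, which stabilises mitochondrial mRNA with Lrpprc, at 0.68 ± 0.09 and Lrpprc at 0.39 ± 0.06. The shares of these 3 lists lie near or below the 16.5% of all genes above the median level, a share not matched to the level of the members.

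Proteins of the mitochondrial surface, their motor adaptors and mRNA anchors had 10 of 34 higher (29.4%) and 1 lower, median 0.24, and 2 higher and 1 lower after quantile normalization. Synj2bp, an outer membrane protein that anchors mRNA to mitochondria in neurons, had 7.85 and 6.76 against 3.71 and 3.77 RPM (0.93 ± 0.12, adjusted p = 0.0012). Vdac1, the outer membrane channel, was at 0.48 ± 0.06, and Cluh, which binds mRNAs of mitochondrial proteins, had 40.1 and 40.3 against 31.6 and 31.5 RPM (0.32 ± 0.05). Akap1, an anchor of mRNA and kinase at the outer membrane, was the lower one, at -0.38 ± 0.09 (adjusted p = 0.02).

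Lists of cytosolic functions are read beside the same 16.5%, which is not matched to the level of their members either. In decile 10 of genes by level 43.3% were higher. A share above 16.5% is therefore not shown to be particular to a list. Translation initiation and elongation factors had 23 of 70 higher (32.9%) and 1 lower, median 0.29, and 7 higher and 1 lower after quantile normalization. Eif3a, the largest subunit of the initiation factor eIF3, had 157.0 and 153.0 against 92.8 and 88.3 RPM (0.74 ± 0.03, adjusted p = 7.4e-07). Cytosolic ribosomal proteins had 4 of 78 higher (5.13%), median 0.23, and none after quantile normalization. Rps27 had 7 and 26 reads in the mitochondrial and nuclear replicate 1, and 2234 and 1488 in the replicates 2. Rpl8, with 187.8 and 183.5 against 147.2 and 142.1 RPM, had no such split. How many ribosomal protein genes share the split was not counted, so the 5.13% does not show a lack of excess. Glycolysis enzymes had 6 of 17 higher (35.3%), median 0.32, and 2 after quantile normalization. Heat shock proteins had 4 of 12 higher (33.3%), median 0.37, and histone genes 13 of 73 (17.8%), median 0.24; after quantile normalization the counts were 0 and 1. G2/M genes had 11 of 23 higher (47.8%), median 0.29, but none after quantile normalization. Cytoskeleton mRNAs had 11 of 25 higher (44.0%) and 1 lower, median 0.26, and 4 higher and 2 lower after quantile normalization. Vim, vimentin, had 454.1 and 438.3 against 342.0 and 327.3 RPM (0.38 ± 0.02), and Hsp90ab1 782.4 and 751.3 against 588.1 and 557.3 RPM (0.39 ± 0.02). Zinc finger genes had 21 of 338 higher (6.21%) and 3 lower, median 0.01, and 3 higher and 1 lower after quantile normalization. Over tested genes of all levels the share higher was 8.5%. Of splicing factor mRNAs, many with detained introns that keep transcripts in the nucleus, 10 of 40 were higher and 5 lower. That balance turned to 1 higher and 6 lower after quantile normalization and 4 higher and 6 lower with centring on genes above the median level. Srsf1 was at 0.61 ± 0.05 and Srrm2 at -0.21 ± 0.03.

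mRNAs of secreted, membrane and lysosomal proteins, which are translated at the endoplasmic reticulum, had list medians from -0.04 to 0.13 at 1 h. Over all tested genes 8.5% were higher and 1.86% lower, and above the median level 16.5% and 2.51%. These shares are not matched to the level of the members. After quantile normalization 1.69% of all were higher and 2.23% lower. Extracellular matrix genes had 13 of 38 higher (34.2%) and none lower, median 0.13. After quantile normalization 1 was higher and 3 lower, median -0.06. Membrane receptors and adhesion proteins had 2 of 49 higher (4.08%) and 10 lower (20.4%), median -0.04. After quantile normalization 1 was higher and 15 lower. Endoplasmic reticulum machinery had 3 of 42 higher (7.14%), median 0.01, and lysosomal genes 2 of 30 (6.67%), median -0.04. Both shares lie below those of all genes. After quantile normalization 5 and 6 members of these 2 lists were lower and none higher. Cholesterol and fatty acid synthesis genes had 5 of 27 higher (18.5%) and 4 lower (14.8%). ATF4 and amino acid response genes had 3 of 26 higher (11.5%) and 4 lower (15.4%). After quantile normalization these were 0 higher and 8 lower, and 0 higher and 7 lower. Fgfr1, a growth factor receptor, had 24.6 and 24.7 against 36.6 and 34.2 RPM (-0.55 ± 0.04, adjusted p = 8.5e-05), and Celsr2, a cadherin, was called on 1 and 0 reads against 11 and 7. Immediate early and serum response genes had 4 of 61 higher (6.56%) and 4 lower (6.56%), and 1 higher and 4 lower after quantile normalization. Their share higher lies below that of all genes. Egr1 was at 0.52 ± 0.08 and Ccn1 and Ccn2, matricellular proteins, at -0.40 ± 0.04 and -0.36 ± 0.04.

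**Figure D4:**
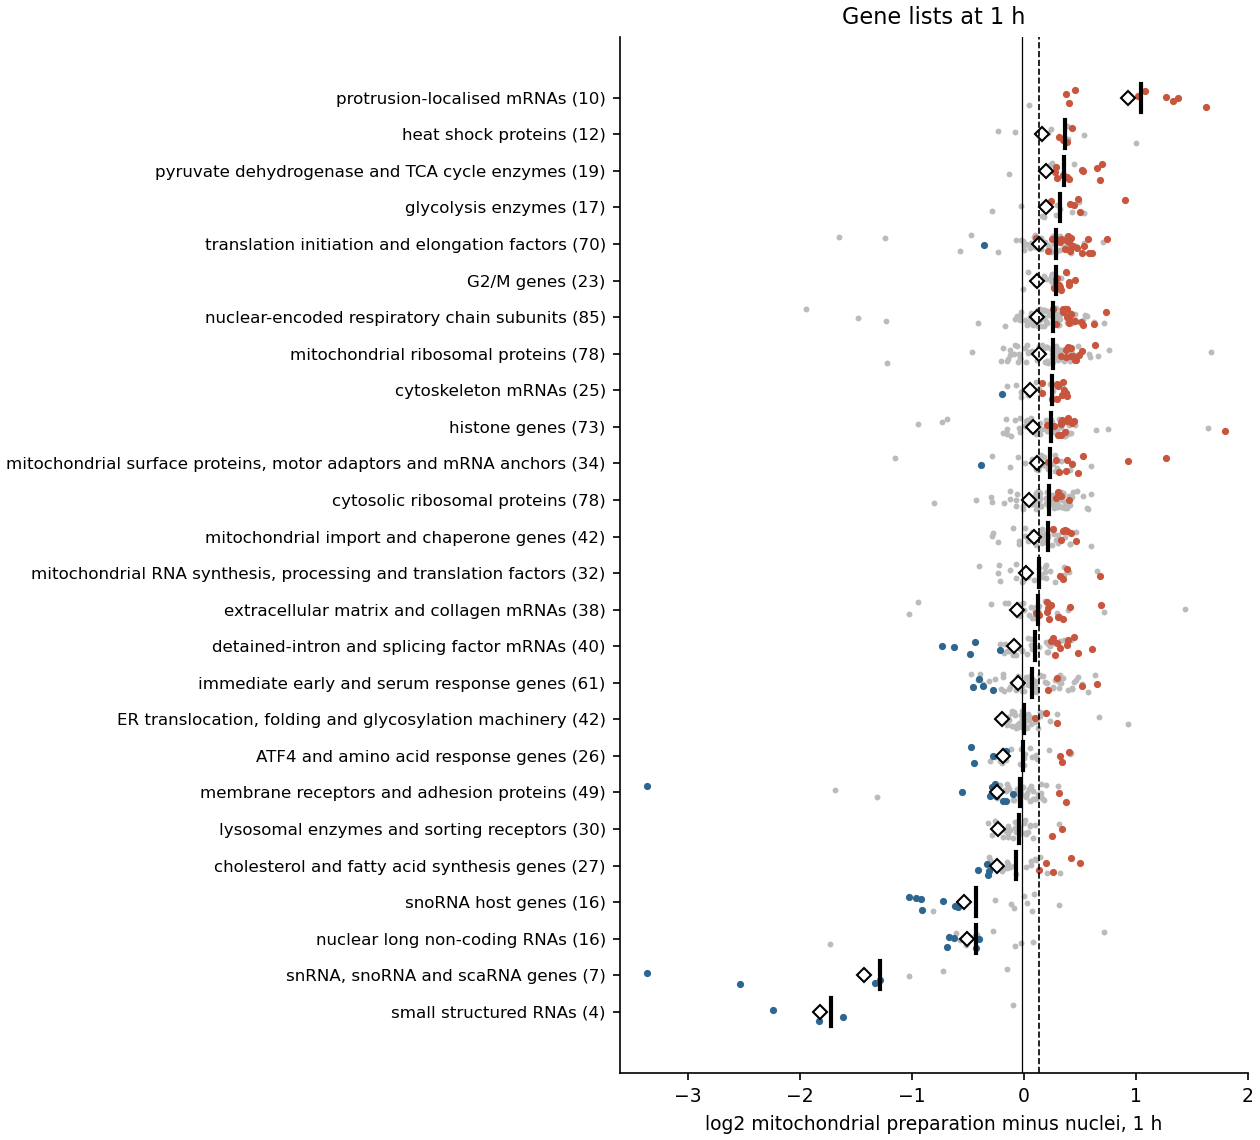
Each dot is a gene of a list (number tested in brackets) at its log2 difference at 1 h, red where called higher in the mitochondrial preparation, blue where called lower and grey otherwise; bars are list medians, open diamonds the medians after quantile normalization, the solid line the median of all tested genes and the dashed line that of genes above the median level. Protrusion-localised mRNAs lie at a median of 1.05, most mRNA lists between -0.07 and 0.37, and the nuclear RNA lists below -0.4.

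Sequence features were compared over 10007 coding genes above the median level. The median difference fell with the GC content of the transcript, from 0.22 in the fifth of lowest GC (median 41.41%) to 0.04 in the fifth of highest GC (median 57.84%). Genes higher in the mitochondrial preparation numbered 444 of 2002 in the former and 195 of 2000 in the latter. At 0 h the median difference moved the other way with GC, from 0.131 at the lowest GC to 0.254 at the highest. The median change from 0 h to 1 h was 0.095 at the lowest GC and -0.196 at the highest. The fall with GC was thus seen at 1 h and not at 0 h, and the difference at 2 h was not read by GC. The other values of this paragraph are for 1 h. Over gene length the median was 0.14 in the fifth of shortest and 0.15 in the fifth of longest genes, but the share called higher was 10.7% and 20.5%. That share was 12.6% and 24.6% at the ends of transcript length and 11.9% and 23.9% at those of exon number. The share called lower rose too, from 0.799% to 3.0% and from 1.56% to 3.03%. Medians at these ends were 0.169 and 0.153 for transcript length and 0.136 and 0.143 for exon number. By gene type, coding genes at these levels had a median of 0.14, 451 long non-coding genes together 0.04 with 26 higher and 26 lower, and 75 lincRNA genes -0.05. All 5 small Cajal body RNA genes and all 3 ribozyme genes at these levels were lower.

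The last question was whether the difference between fractions at 1 h was the same as at 0 h and 2 h. The contrast of 1 h with 0 h, tested as an interaction in limma, was higher for 70 genes (0.332%) and lower for 691 (3.28%), and among genes above the median level 667 (6.33%) were lower. These changes are relative to the median gene: on the deposited scale the median of the contrast moved from -0.11 to 0.33, a shift of 0.44, and 1573 genes were higher and 82 lower. After quantile normalization 69 were higher (0.327%) and 188 lower (0.892%). Leaving out mitochondrial replicate 1 of 1 h, or either nuclear library of 0 h, gave 437 to 500 calls. The contrasts of 1 h with 0 h and of 2 h with 1 h share the libraries of 1 h.

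In the main scaling, most members of 4 lists of genes with mRNAs translated at the endoplasmic reticulum were among the lower ones. The lists were chosen with earlier results of these data known, so their counts are a description. Over the 4 lists of matrix, receptor, endoplasmic reticulum and lysosomal genes, 159 genes in all, 99 (62.3%) were lower at 1 h than at 0 h and none was higher, with a median of -0.57. Their median difference was 0.54 at 0 h, 0.01 at 1 h and 0.18 at 2 h. The count was 52 lower after quantile normalization, 91 with centring on genes above the median level, 26 lower and 2 higher on the deposited scale, and 22 lower without the 4 libraries with few reads in Gapdh, where the median was -0.54. By list the lower genes were 25 of 38 for matrix, 34 of 49 for receptors, 25 of 42 for endoplasmic reticulum machinery and 15 of 30 for lysosomes.

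Fn1, fibronectin (chromosome 1, 71585520 to 71653200), shows the pattern in every library. In the mitochondrial preparation it had 1731.3 and 1594.8 RPM at 0 h; the 1 h libraries held 839.2 and 826.3 RPM, those of 2 h 1049.4 and 1008.3. The nuclear libraries held 884.8 and 874.2 RPM at 0 h, then 718.0 and 676.2, and finally 705.9 and 651.0. The mitochondrial values lay above the nuclear ones at each time, but by much less at 1 h: the log2 difference went from 1.33 to 0.23 ± 0.02, a change of -1.10 ± 0.02 (adjusted p = 1.9e-08). Hspg2, perlecan, had 786.0 and 757.9 against 367.8 and 355.7 RPM at 0 h and 401.5 and 394.7 against 298.3 and 286.4 RPM at 1 h (change -1.09 ± 0.03). Lrp1, an endocytic receptor, had 800.1 and 761.0 against 388.8 and 377.3 RPM at 0 h and 361.4 and 357.8 against 275.8 and 267.5 RPM at 1 h (change -1.06 ± 0.04). Col1a1, a chain of collagen I, changed by -0.88 ± 0.04.

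Flna, filamin A, which crosslinks actin and is not a secreted protein, changed by -0.68 ± 0.03, from 0.62 to -0.07, and the cytoskeleton list as a whole had 17 of 25 lower, but 2 higher and 2 lower after quantile normalization. The adhesion protein Fat1, the sorting receptor Igf2r, Fgfr1 and the laminin chain Lamc1 changed by -0.72 to -0.82. Rpn1 of the glycosylation complex changed by -0.73, Hsp90b1, a chaperone of the endoplasmic reticulum, by -0.61, and Sqle of cholesterol synthesis by -0.54. Among lists of mitochondrial function 2 of 85 respiratory chain subunits (2.35%), none of 78 mitochondrial ribosomal proteins and 2 of 19 TCA cycle genes (10.5%) were lower. Of all tested genes 3.28% were lower, and of those above the median level 6.33%. Of the RNAs that rose in this contrast, Bc1 changed most among the named ones, by 1.69 (adjusted p = 3.9e-05): in nuclei it had 57.2 and 56.5 RPM at 0 h and 24.3 and 20.1 at 1 h, while the mitochondrial preparation had 13.4 and 11.5 RPM and then 22.5 and 19.8. Rpph1, with 1096.2 and 1028.5 RPM in nuclei at 0 h, changed by 0.54, and Snhg1 and Snhg4 by 0.61 and 0.59.

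From 1 h to 2 h the difference changed for fewer genes, 42 higher (0.199%) and 6 lower (0.0285%). None passed on the deposited scale or after quantile normalization, and 5 to 14 passed when any 1 library of these times was left out. Fn1, Lrp1, Hspg2 and Col1a1 were larger again in the mitochondrial preparation at 2 h, by 0.55 ± 0.02, 0.53 ± 0.04, 0.44 ± 0.03 and 0.41 ± 0.04 (adjusted p = 1.3e-05, 0.00062, 0.00062 and 0.0039). After quantile normalization none of these 4 passed, and the direction of Fn1 turned (-0.018, adjusted p = 1). Of the 159 genes of the 4 lists 19 (11.9%) were higher and none lower, with a median of 0.22. Malat1 and Neat1 moved the other way, by -0.54 and -0.66 (adjusted p = 0.0066 and 0.0076), as Malat1 went to 289.5 and 265.1 RPM in the mitochondrial preparation and 648.2 and 577.2 RPM in nuclei at 2 h.

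**Figure D5:**
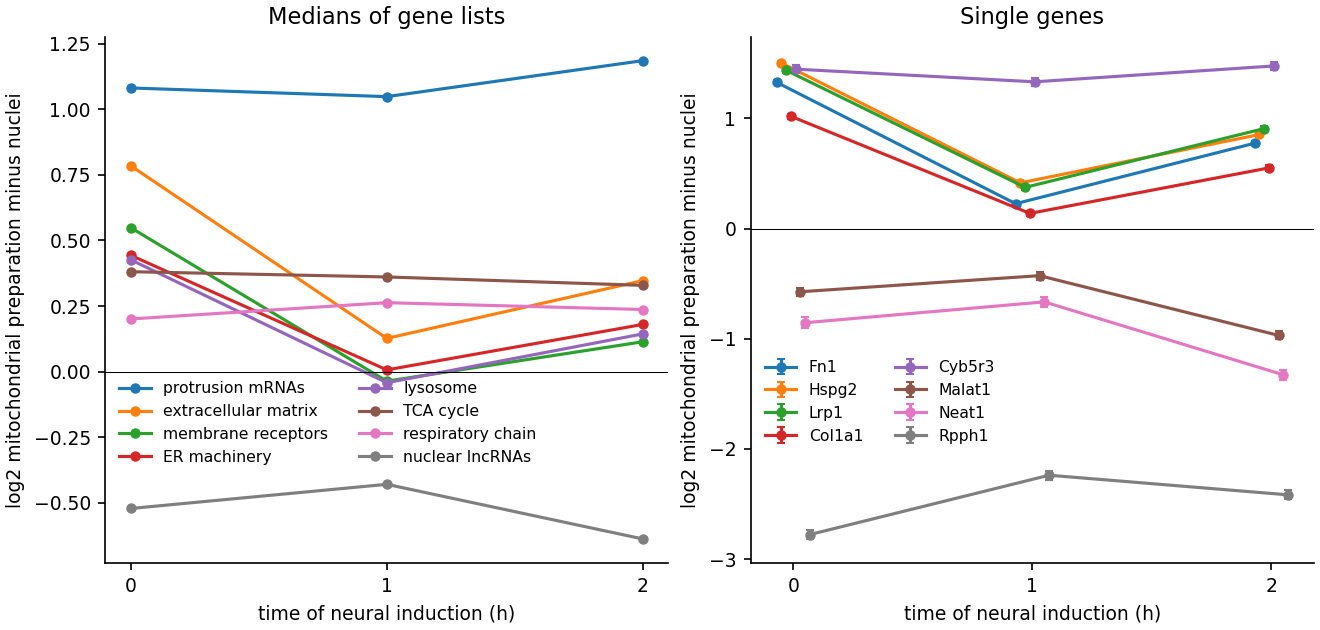
Log2 difference, mitochondrial preparation minus nuclei, at 0, 1 and 2 h: on the left medians of gene lists, on the right single genes with standard errors of the limma model as bars. The matrix, receptor, endoplasmic reticulum and lysosome lists dip at 1 h (matrix 0.78, 0.13 and 0.35), while the median of protrusion-localised mRNAs is 1.08, 1.05 and 1.19, with 1 of the 10 (Dynll2) higher and 2 (Ddr2 and Kank2) lower at 1 h than at 0 h.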

How the data were processed

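RNA of isolated mitochondria and nuclei was sequenced after ribosomal RNA depletion with the NEBNext Ultra II kit, per the labels' protocols. HISAT2, StringTie and edgeR, with the builds GRCm38 and mm10, are listed without settings in the submitters' processing notes. The authors deposited a SeqMonk gene table of log2 RPM, and a transcript table of FPKM, per the file headers. Taking each library's lowest gene value as 0.9 read gave whole reads within 0.05 read for at least 99.9972% of values. The 52 repeated entries were left out.

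Genes with a read in 2 or more libraries entered limma 3.58.1 (R 4.3.3; variance trend, robust moderation, 6 group means over 12 libraries) after median centring. Transcripts with an FPKM of at least 1 in at least 2 of 11 libraries were tested on log2(FPKM + 1). The fit was tested on simulated counts. Genes named are the 15 largest differences per direction with non-overlapping groups, a mean above the median and no predicted name, the 4 smallest p of each list, the 5 smallest p of each interaction, and a set list of RNAs; Airn, Akap1, Rab13, Kif5b, Ddr2, Palld and Kank2 were named after their values were seen. Members and lists were chosen with earlier results of these data known. Alternatives were other scalings, filters, replicate blocks, a split term and left-out libraries. Libraries of a group differed by more than sampling noise (chi-square per degree of freedom 1.92 to 12.42). Results for some genes are not reported here.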

Additional observations from a re-analysis of the deposited data

Results flagged for a closer look

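The difference between the mitochondrial preparation and nuclei was not the same at all times for the genes named here, by the interaction test in limma over 2 libraries per fraction and time. From 0 h to 1 h it fell in genes of matrix, membrane and endoplasmic reticulum proteins: the log2 change was -1.10 for Fn1, -1.09 for Hspg2, -1.06 for Lrp1, -0.88 for Col1a1, -0.87 for Col12a1, -0.82 for Fat1, -0.82 for Igf2r, -0.79 for Fgfr1 (-0.785), -0.73 for Rpn1, -0.72 for Lamc1, -0.61 for Hsp90b1 and -0.57 for Lamp1. It also fell in Celsr2 (-3.98, on few reads), Tmem44 (-1.27), Flna (-0.68), Slc3a2 (-0.65), Ahnak (-0.61), Srrm2 (-0.57), Sqle (-0.54) and Tln1 (-0.47).

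From 0 h to 1 h the difference rose in Bc1 (1.69), Snhg1 (0.61), Snhg4 (0.59), Rpph1 (0.54), Tra2a (0.47), Dynll2 (0.39) and Srsf1 (0.33).

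From 1 h to 2 h it rose in Fn1 (0.55), Lrp1 (0.53), Fgfr1 (0.46), Fat1 (0.45), Hspg2 (0.44), Col1a1 (0.41), Igf2r (0.35), Hsp90b1 (0.34) and Lamc1 (0.30), and it fell in Neat1 (-0.66) and Malat1 (-0.54). All of these values are relative to the median gene, and both contrasts use the same libraries of 1 h. Groups of 2 libraries were too small to look for single outlying samples.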

How the results depend on the processing

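For the fractions at 1 h (2183 genes called), the count was 827 after quantile normalization, 684 with the libraries of 1 h alone, 636 without trend or robust moderation, 1300 with centring on genes above the median level and 26 without the split libraries, and 1242 to 1533 with 1 library of 1 h left out. For 1 h minus 0 h (761), it was 1655 on the deposited scale, 257 after quantile normalization, 17670 without a filter, 482 with the replicate block within each time, 192 without the split libraries, and 437 to 640 with 1 library left out. For 2 h minus 1 h (48), it was 0 on the deposited scale, after quantile normalization and without the split libraries, 14083 without a filter, 144 for genes with a read in all 12 libraries, 7 with the replicate block within each time, 85 with voom weights, 16 with centring on genes above the median level, and 5 to 14 with 1 library left out. Without a filter, genes with no read carry only constants of library floor and centring. The lowest count at 1 h came without mitochondrial replicate 2, and the lowest for 1 h minus 0 h without nuclear replicate 2 of 0 h. Voom weights, centring on genes above the median level and leaving out the split libraries were chosen after seeing the data.

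Signs turned in these cases: after quantile normalization Canx was at -0.078, Hsp90b1 at -0.034 and Lamc1 at -0.051 at 1 h, and Fn1 at -0.018 for 2 h minus 1 h; Hsp90b1 was at -0.023 with centring on genes above the median level. The cause was not tested. Of 129 named genes called at 1 h, 6 lost the call under the replicate block within each time (1544 calls in all); 65 kept it after quantile normalization, 69 without trend or robust moderation, and 12 without the split libraries. The replicate numbers share only a number: the deviations of same-numbered libraries correlated at 0.68 at 1 h, -0.74 at 0 h and 0.05 at 2 h, and a block over all times gave 2141 calls. In the transcript table (94 called) counts ran from 67 to 91 with 1 mitochondrial library left out, and 82 with the replicate block over all times; leaving out the single nuclear library was not possible.

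With 2 libraries a fraction and 4564148 to 6381785 reads in genes at 1 h, genes below the median level gave 52 higher and 127 lower calls of 10539, and a gene there that did not pass is not shown to be equal.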
